A study of Mus musculus with 9 samples.

Results

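Complement is a set of plasma and cell-surface proteins that tag particles and cells for uptake. The 8 genes described here encode complement components and receptors: C1qa, C1qb, C1qc, C3, Cfb, Cfp, C3ar1 and C5ar1. They were taken by symbol, all 8 were present among 55302 gene symbols in the count table, and all 8 were among the 15417 genes that passed the filter on low counts. C3ar1, Cfb and C5ar1 did not reach 10 counts in all 3 XCR1 libraries, so they passed that filter only through the other populations, where they were higher.

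The data were RNA-seq read counts from dendritic cells sorted from the thymus of C57BL/6 mice aged 8 weeks. There were 9 libraries, 3 of each population, and the populations were labelled CD301b, SIRPa and XCR1. CD301b is a lectin encoded by Mgl2, SIRPa is a receptor carried by conventional dendritic cells of type 2, and XCR1 is a chemokine receptor of conventional dendritic cells of type 1. The series title concerns type 2 cytokines acting on Sirpa+ dendritic cells. The labels named no mutation and no treatment for any population, and the sort gates were not given in the sources used here. The design text named 3 mice. It left unsaid if 1 animal gave cells to several populations and if animals were pooled, so every p-value below measures the spread between these libraries only.

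The libraries held 20246092 to 25438864 counts each. Levels are given as CPM, the read count of a gene relative to the library's size as scaled by TMM, the normalisation of edgeR. The gate genes followed the labels. Mgl2 stood at 683, 625 and 566 CPM in CD301b and at most 28.3 CPM in the other libraries. Sirpa stood at 600 CPM or more in CD301b and SIRPa and at most 14.6 CPM in XCR1, and Xcr1 was at 782, 854 and 663 CPM in the XCR1 libraries. The sum of 6 dendritic cell markers (Flt3, Zbtb46, Itgax, H2-Aa, H2-Ab1, Cd74) was 28300 to 32900 CPM in CD301b, 20700 to 22600 CPM in SIRPa and 21000 to 25600 CPM in XCR1. Cd74, H2-Ab1 and H2-Aa held most of this sum, and the other markers differed in direction. In CD301b, SIRPa and XCR1, Flt3 averaged 326, 252 and 519 CPM and Zbtb46 147, 99.7 and 177 CPM. Itgax averaged 599, 467 and 385 CPM. XCR1 replicate 3 stood apart from XCR1 replicates 1 and 2. Its 10 thymocyte markers summed to 380 CPM, against 60 and 41.1 CPM, and its 10 granulocyte markers to 43.9 CPM, against 0.499 and 1.38 CPM. The thymocyte sums were 93.4 to 225 CPM in CD301b and 72.1 to 216 CPM in SIRPa. The granulocyte sums were 48.3 to 61.8 CPM in CD301b and 53 to 107 CPM in SIRPa, all above XCR1 replicate 3. In CD301b most of that sum was Cxcr2 and Csf3r, which averaged 22.6 and 28.5 CPM. The 4 defining granulocyte markers (Ngp, Camp, Ltf and Retnlg) went the other way there, with sums of 0 to 3.81 CPM in CD301b. They summed to 8.17 to 34.7 CPM in SIRPa, and to 0.449, 0.855 and 17.7 CPM in XCR1 replicates 1, 2 and 3. The results of the 8 genes against XCR1 are therefore also given without XCR1 replicate 3. In sorted bulk samples, fewer cells of a type and less RNA per cell cannot be told apart.

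C1q is the recognition molecule of the classical pathway and binds antibody complexes and dying cells. C3 is the component on which all pathways converge: its cleavage leaves a fragment on the target that phagocytes recognise and releases the small peptide C3a. Factor B and properdin act in the alternative pathway, which amplifies C3 cleavage, and C3a and C5a act through G-protein-coupled receptors. Most plasma complement is made in the liver, whereas macrophages and some dendritic cells are the main source of C1q.

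All 8 complement genes were higher in both CD301b and SIRPa cells than in XCR1 cells. In CD301b against XCR1, 8 of 8 passed edgeR's quasi-likelihood test as higher (adjusted p under 0.05), where 13.5% of all tested genes were called higher. In SIRPa against XCR1, 8 of 8 were higher, where 13.9% of all tested genes were. C3ar1, Cfb and C5ar1 entered the test through the populations where they were higher. Of the 5 genes that reached 10 counts in every XCR1 library, 5 were higher in each comparison. Without XCR1 replicate 3 the counts over the 8 genes were 7, C5ar1 falling short, and 8. Over all 9 libraries the difference was over 50-fold for C1qa, C1qb, C1qc, C3, Cfb and C3ar1, and 4.15-fold and 4.80-fold for Cfp. Without XCR1 replicate 3, C3ar1 fell under 50-fold in CD301b against XCR1 (log2 fold change 5.36, against 5.90). The level in CD301b cells was below that in SIRPa cells for every one of the 8 genes, at 28.9 to 86.5% of the SIRPa mean. None of these 8 differences passed the test over all 9 libraries (0 of 8 called, where 4.28% of all tested genes were called, and 0 at an unadjusted p under 0.05). That count depended on the fit: 5 of 8 were called lower with limma-voom, 5 of 8 when the CD301b and SIRPa libraries were fitted alone, and 4 of 8 without XCR1 replicate 3.

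The median log2 fold change of the 8 genes was -0.69 in CD301b against SIRPa, where the median over all tested genes was 0.01. It was 6.46 in CD301b against XCR1 and 7.12 in SIRPa against XCR1, where the medians over all tested genes were 0.05 and 0.06. With C5ar1, which had no count in XCR1, set against 3 counts there, these were 6.19 and 6.91. The groups did not overlap for 7 of the 8 genes in CD301b against SIRPa, where 22.1% of tested genes did not overlap. They did not overlap for 7 of 8 in CD301b against XCR1 and for 8 of 8 in SIRPa against XCR1, where 34.4% and 40.2% of tested genes did not. The exception in both 7-gene counts was C5ar1. C3ar1, Cfb and C5ar1 passed the filter only through CD301b and SIRPa, which favours a gap to XCR1 in these counts and medians. The 5 genes that reached 10 counts in every XCR1 library did not overlap in either comparison with XCR1. The 8 genes were also chosen with earlier results of these data known. The plot of each gene by library shows these levels.

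**Figure D1:**
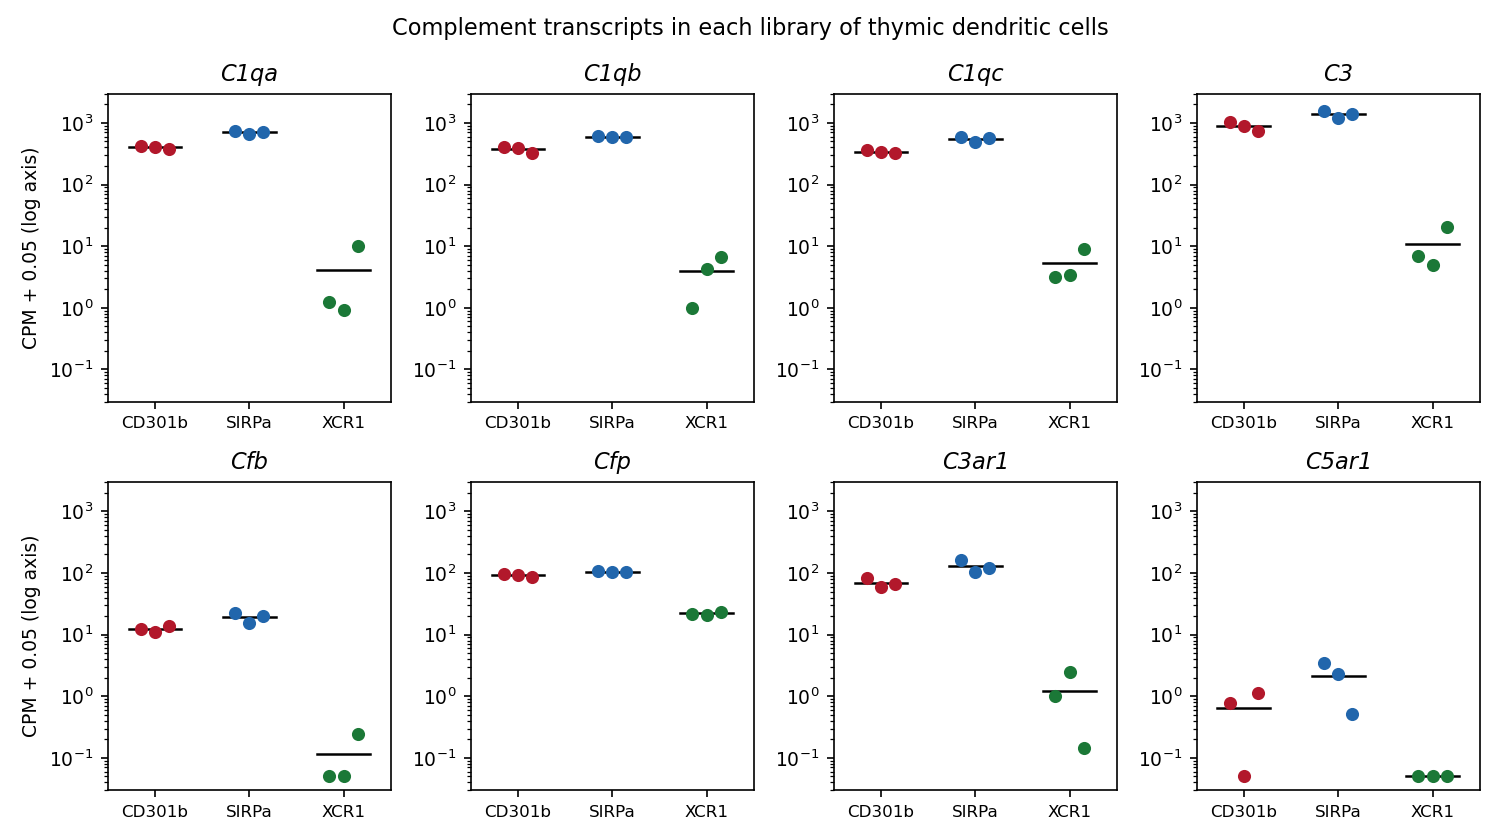
Complement transcripts in each of the 9 libraries, as TMM-normalised CPM plus 0.05 on a log axis; points are libraries and the line is the mean of 3. C1qa, C1qb, C1qc and C3 lie above 300 CPM in every CD301b and SIRPa library and at or under 20.4 CPM in every XCR1 library, whereas Cfp lies at 21.0 to 23.3 CPM in XCR1.

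The genes C1qa, C1qb and C1qc encode the chains that build 1 protein, C1q, and lie side by side on the minus strand of chromosome 4 (GRCm38): C1qb at chr4:136880129-136886187, C1qc at chr4:136889804-136893065 and C1qa at chr4:136895917-136898803. C1qa stood at 420, 404 and 379 CPM in CD301b, at 729, 664 and 719 CPM in SIRPa and at 1.2, 0.855 and 9.93 CPM in XCR1. C1qb stood at 400, 395 and 324 CPM in CD301b, at 605, 587 and 596 CPM in SIRPa and at 0.948, 4.23 and 6.70 CPM in XCR1. C1qc stood at 359, 337 and 326 CPM in CD301b, at 599, 483 and 575 CPM in SIRPa and at 3.14, 3.42 and 9.11 CPM in XCR1. For each chain gene every SIRPa library was above every CD301b library, and all 6 of these were far above XCR1, whose highest library was replicate 3.

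The promoters of C1qb, C1qc and C3 are shown because these genes had high levels in CD301b and SIRPa and low levels in XCR1, and that of Cfp because Cfp had the highest level of the 8 genes in XCR1. The windows run from 250 bases before to 50 after the annotated start and come from RefSeq (GRCm38.p6), which gave one for 6 of the 8 genes. C1qa and Cfb had no entry, and the windows of C3ar1 and C5ar1 are not printed. All are written along the gene, 5′ to 3′, on the minus strand of the chromosome. C1qb lies at chr4:136886151-136886450, C1qc at chr4:136892865-136893164, C3 at chr17:57228087-57228386 and Cfp at chrX:20931506-20931805.
C1qb: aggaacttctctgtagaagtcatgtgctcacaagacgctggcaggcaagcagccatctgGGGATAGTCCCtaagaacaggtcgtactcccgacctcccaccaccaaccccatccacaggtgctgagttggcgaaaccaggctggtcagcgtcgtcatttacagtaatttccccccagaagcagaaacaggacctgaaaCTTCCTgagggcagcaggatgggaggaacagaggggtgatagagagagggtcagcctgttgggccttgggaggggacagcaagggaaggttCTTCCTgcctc
C1qc: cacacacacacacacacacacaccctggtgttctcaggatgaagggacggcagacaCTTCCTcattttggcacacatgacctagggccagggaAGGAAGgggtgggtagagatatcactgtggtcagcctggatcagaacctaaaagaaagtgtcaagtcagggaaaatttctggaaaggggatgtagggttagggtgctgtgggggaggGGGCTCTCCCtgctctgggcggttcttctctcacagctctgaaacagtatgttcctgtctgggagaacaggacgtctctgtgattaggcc
C3: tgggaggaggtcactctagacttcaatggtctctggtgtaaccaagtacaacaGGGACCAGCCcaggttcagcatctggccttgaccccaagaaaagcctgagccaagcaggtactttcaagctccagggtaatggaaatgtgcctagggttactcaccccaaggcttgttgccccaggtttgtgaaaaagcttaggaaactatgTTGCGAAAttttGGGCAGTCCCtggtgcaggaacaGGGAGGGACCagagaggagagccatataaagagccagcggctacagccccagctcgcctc
Cfp: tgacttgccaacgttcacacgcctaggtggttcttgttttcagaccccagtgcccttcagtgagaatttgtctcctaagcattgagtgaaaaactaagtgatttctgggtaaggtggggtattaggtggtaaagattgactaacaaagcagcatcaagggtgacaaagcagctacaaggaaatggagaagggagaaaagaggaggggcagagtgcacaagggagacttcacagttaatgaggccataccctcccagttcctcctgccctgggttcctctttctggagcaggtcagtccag
Capitals mark matches on either strand to 6 searched strings: AGGAAG, a core bound by the myeloid factor PU.1, GGAA, any 2 bases and GAAA (the PU.1 with interferon regulatory factor string), GAAA, any 2 bases and GAAA (the interferon string), TGCTGAC, of Maf factors, TTGCNNAA, of C/EBP factors, and GGGA, any 4 bases and CC (the NF-kappaB string). Runs of capitals longer than a string are overlapping matches on the 2 strands. C1qb and C1qc each held AGGAAG at 2 places, and C1qb, C1qc and C3 held the NF-kappaB string. C3 also held TTGCNNAA, whereas the Cfp window held none of the 6 strings. The window of C3ar1 held AGGAAG at 1 place and that of C5ar1 at 3, and neither held another of the strings. Among 32851 promoter windows of the same length, 35.4% held AGGAAG, 20.7% the NF-kappaB string, 10.8% TTGCNNAA, 4.67% TGCTGAC, 3.44% the interferon string and 2.72% the string of PU.1 with an interferon regulatory factor. These are matches of letters, and binding was not measured.

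Against XCR1, C1qa had a log2 fold change of 6.64 ± 0.83 in CD301b (SE, adjusted p = 0.00156) and of 7.46 ± 0.85 in SIRPa (adjusted p = 0.000952). C1qb had one of 6.55 ± 0.54 in CD301b (adjusted p = 0.000176) and 7.23 ± 0.55 in SIRPa (adjusted p = 0.00011). C1qc had one of 6.02 ± 0.41 in CD301b (adjusted p = 3.21e-05) and 6.72 ± 0.42 in SIRPa (adjusted p = 1.82e-05). XCR1 replicate 3 set much of the size: without it the log2 fold changes were 8.60 (C1qa), 7.16 (C1qb) and 6.69 (C1qc) for CD301b, and 9.42 (C1qa), 7.83 (C1qb) and 7.39 (C1qc) for SIRPa, and all stayed past the threshold.

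Between CD301b and SIRPa, the log2 fold changes were -0.81 ± 0.62 for C1qa (adjusted p = 0.698), -0.67 ± 0.41 for C1qb (adjusted p = 0.58) and -0.70 ± 0.31 for C1qc (adjusted p = 0.393). CD301b averaged 401 ± 20.7 CPM of C1qa and SIRPa 704 ± 34.9 CPM (SD, n = 3 each). The fit shares 1 estimate of the spread per gene over all 9 libraries, and the XCR1 libraries of the C1q genes varied several-fold. When the same test was fitted to the 6 CD301b and SIRPa libraries alone, C1qa (adjusted p = 2.34e-05), C1qb (0.000315), C1qc (0.000272), C3 (0.00277) and C3ar1 (0.00256) were called lower in CD301b, 5 of 8, where 6.2% of 14531 tested genes were called. With limma-voom on all 9 libraries the same 5 genes were called, where 5.79% of tested genes were, and with DESeq2 none was, C1qa having no adjusted p there. Without XCR1 replicate 3, edgeR called C1qa (adjusted p = 1.36e-05), C1qc (0.000156), C3 (0.00407) and C3ar1 (0.0204), where 4.95% of tested genes were called. Without XCR1 replicate 1 it called C1qb alone (adjusted p = 0.00194), where 4.14% were.

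The 3 chain genes kept near-constant proportions in CD301b and SIRPa. Of the counts on the 3 genes, C1qa took 35.5 to 36.8% in the CD301b libraries and 37.7 to 38.3% in the SIRPa libraries. In the XCR1 libraries C1qa took 22.6% (95% exact Clopper-Pearson interval 15.1 to 31.8), 10.1% (6.07 to 15.4) and 38.6% (34.4 to 42.9), of 106, 179 and 534 C1q counts. The counts on the 3 genes were 0.104 to 0.117% of a CD301b library, 0.18 to 0.2% of a SIRPa library and 0.000511 to 0.00261% of an XCR1 library. The interval of XCR1 replicate 3 held the C1qa shares of the CD301b and SIRPa libraries, but its C1qb share was 26% (22.4 to 30), against 31.5 to 34.8% in CD301b and 31.3 to 33.9% in SIRPa. Each of the 3 XCR1 libraries thus differed from the CD301b and SIRPa libraries for at least 1 chain beyond counting error. Libraries of 1 population did so too: C1qb took 34.8% (34.2 to 35.4) in CD301b replicate 3 and 31.5% (30.9 to 32.1) in CD301b replicate 4. These intervals therefore cannot separate populations, and a difference between populations in the proportions was not tested. The plot of chain shares shows each library with its interval.

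**Figure D2:**
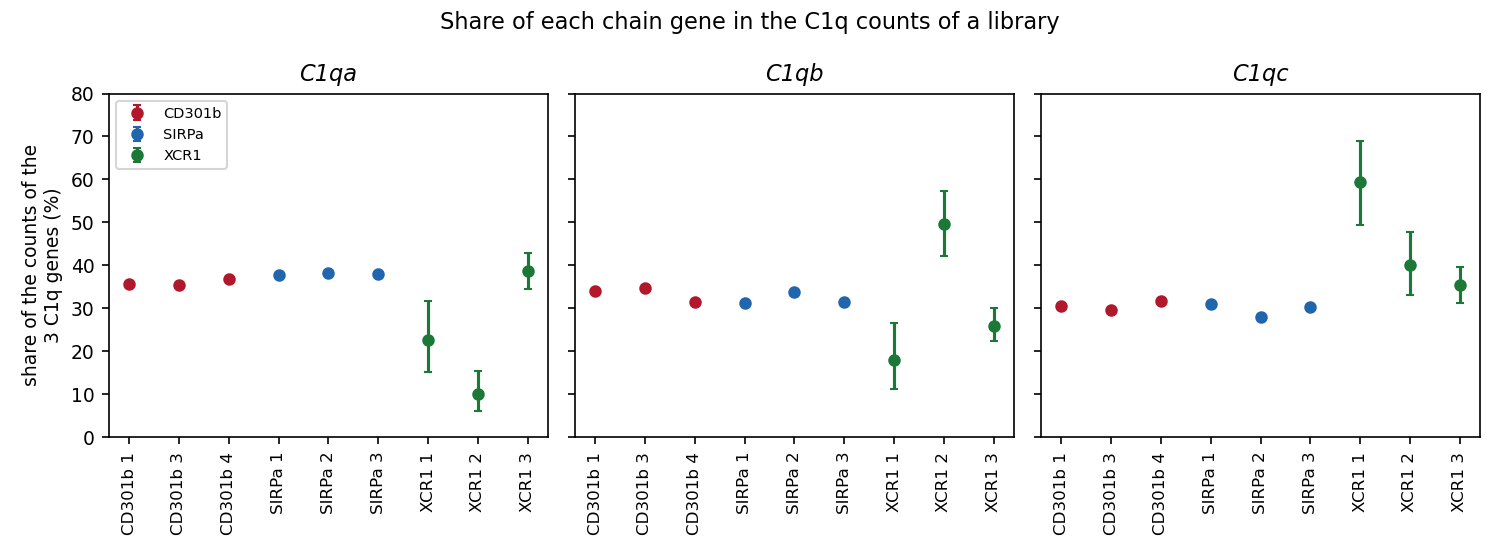
Share of each chain gene among the counts of C1qa, C1qb and C1qc in each library, in percent, with exact 95% intervals that cover counting error only. The 6 CD301b and SIRPa libraries lie close together for each gene, and the 3 XCR1 libraries, with 106 to 534 counts, spread from 10.1 to 38.6% for C1qa.

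C3 encodes the central component and lies on the minus strand at chr17:57203970-57228136. C3 had the highest CPM of the 8 genes in both CD301b and SIRPa: 1020, 904 and 731 CPM in CD301b, 1580, 1180 and 1410 CPM in SIRPa, and 6.78, 4.94 and 20.4 CPM in XCR1. The 3 populations did not overlap, and XCR1 replicate 3 was again the highest of its population. C3 was higher than in XCR1 by 6.36 ± 0.59 in CD301b (adjusted p = 0.000362) and by 7.02 ± 0.61 in SIRPa (adjusted p = 0.000235) on the log2 scale, and by 7.24 and 7.89 without XCR1 replicate 3. Between CD301b and SIRPa the log2 fold change was -0.65 ± 0.46 (adjusted p = 0.667), with 884 ± 144 CPM in CD301b and 1390 ± 201 CPM in SIRPa. C3 was called lower there with limma-voom (adjusted p = 0.000296), with the 6 libraries alone (0.00277) and without XCR1 replicate 3 (0.00407).

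Cfb encodes factor B, the protease of the alternative-pathway C3 convertase, and lies on the minus strand at chr17:34856374-34862518. Cfb stood at 12.1, 11.2 and 13.8 CPM in CD301b, at 22.7, 15.6 and 19.7 CPM in SIRPa and at 0, 0 and 0.193 CPM in XCR1. The XCR1 level rested on 4 counts in a single library, XCR1 replicate 3, against 851 counts in CD301b and 1252 in SIRPa. By counts the level was 190 times that of XCR1 in CD301b (95% interval 73.8 to 697) and 297 times in SIRPa (116 to 1090), both called (adjusted p = 5.48e-09 and 1.52e-09). Without that library Cfb had no count in XCR1, and the fitted log2 fold changes, which then depend on the prior count and are no bound, moved to 11.08 for CD301b (adjusted p = 1.11e-09) and 11.73 for SIRPa (3.86e-10). Between CD301b and SIRPa the log2 fold change was -0.65 ± 0.38 (adjusted p = 0.491), although the groups did not overlap. In GENCODE vM21, 2246 of the 2825 exonic bases of Cfb (79.5%) also belong to a readthrough gene on the same strand, Gm20547, which had 0 counts in every library, so the Cfb counts are uncertain to the extent that shared reads were discarded.

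Cfp encodes properdin, which stabilises the alternative-pathway convertase, and lies on the minus strand at chrX:20925454-20931555. Cfp stood at 96.3, 92.4 and 85.4 CPM in CD301b, at 106, 105 and 105 CPM in SIRPa and at 21.8, 21.0 and 23.3 CPM in XCR1. In XCR1 it stood at 20.8% of the SIRPa mean, where the other 7 genes stood between 0 and 0.946%. Cfp was 4.15-fold higher in CD301b than in XCR1 (log2 2.05 ± 0.13, adjusted p = 1.17e-10) and 4.80-fold higher in SIRPa than in XCR1 (log2 2.26 ± 0.13, adjusted p = 2.99e-11). XCR1 replicate 3 did not stand apart for Cfp, and the log2 fold changes without it were 2.10 and 2.30. Between CD301b and SIRPa the log2 fold change was -0.21 ± 0.12 (adjusted p = 0.505), with means of 91.4 ± 5.55 CPM in CD301b and 106 ± 0.755 CPM in SIRPa.

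C3ar1 encodes the receptor for C3a and lies on the minus strand at chr6:122847138-122856161. C3ar1 stood at 84.1, 58.4 and 66.8 CPM in CD301b, at 163, 104 and 122 CPM in SIRPa and at 0.948, 2.42 and 0.0965 CPM in XCR1. Here XCR1 replicate 3 was the lowest library of its population, with 2 counts, unlike its place for C1q and C3. C3ar1 was higher than in XCR1 by 5.90 ± 0.64 in CD301b (adjusted p = 0.000573) and by 6.80 ± 0.66 in SIRPa (adjusted p = 0.000281) on the log2 scale. Without XCR1 replicate 3 these were 5.36 and 6.25. Between CD301b and SIRPa the log2 fold change was -0.89 ± 0.47 (adjusted p = 0.489). C3ar1 was called lower there with limma-voom (adjusted p = 0.000975), with the 6 CD301b and SIRPa libraries alone (0.00256) and without XCR1 replicate 3 (0.0204).

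C5ar1 encodes the receptor for C5a and lies on the minus strand at chr7:16246743-16259540. C5ar1 was close to the limit of detection, at 0.717, 0 and 1.08 CPM in CD301b, 3.45, 2.28 and 0.471 CPM in SIRPa and 0 CPM in all XCR1 libraries. These values rested on 40 counts in CD301b and 135 in SIRPa, and 1 CD301b library had none. By counts, C5ar1 was at least 9.22-fold higher in CD301b than in XCR1 (adjusted p = 0.0354). In SIRPa it was at least 34.3-fold higher than in XCR1 (adjusted p = 0.00966). Both folds are lower limits of 95% intervals. Set against 3 counts over the XCR1 libraries, a level of 0.0485 CPM, the folds were 12.3 in CD301b and 42.7 in SIRPa. The CD301b call was lost with limma-voom (adjusted p = 0.309), and it was lost when CD301b replicate 1 or 4, SIRPa replicate 1 or 2, or any XCR1 replicate was left out (adjusted p = 0.0584 to 0.0828). Between CD301b and SIRPa the log2 fold change was -1.79 ± 1.53 (adjusted p = 0.718) and the libraries overlapped.

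**Figure D3:**
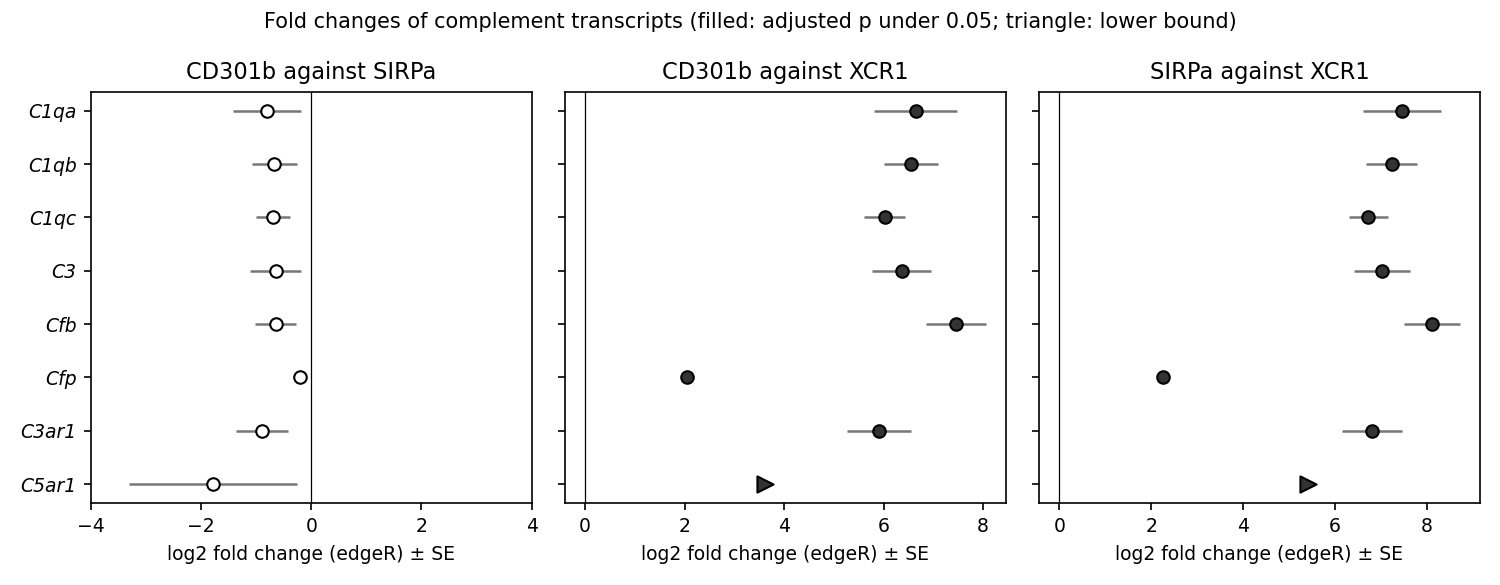
Log2 fold changes of the 8 genes from edgeR with SE, filled where the adjusted p is under 0.05; triangles are lower bounds for C5ar1, which had no count in XCR1. All 8 lie left of 0 in CD301b against SIRPa with no call over 9 libraries (5 are called with the 6 CD301b and SIRPa libraries alone), and right of 0 in both comparisons with XCR1, where Cfp is nearest to 0 at 2.05 and 2.26.

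Divided by the annotated exon length of each gene, the order of levels was the same in CD301b and SIRPa: C1qa, C1qb, C1qc, C3, Cfp, C3ar1, Cfb and C5ar1. In SIRPa the means per kilobase were 677 CPM for C1qa, 548 for C1qb, 286 for C1qc, 270 for C3, 60.8 for Cfp, 30.1 for C3ar1, 6.84 for Cfb and 0.805 for C5ar1. In CD301b they were 385, 343, 176, 172, 52.6, 16.2, 4.37 and 0.233 CPM per kilobase for the same genes. In XCR1 the order differed, with Cfp highest at 12.7 CPM per kilobase and C1qa, C1qb, C1qc and C3 between 2.09 and 3.84. C1qc and C3 were neighbours that differed by less than 1 SD in CD301b and SIRPa, and in XCR1 the 4 genes after Cfp (C1qa, C1qb, C1qc and C3) did so too.

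Most macrophage markers were also higher in CD301b and SIRPa than in XCR1, while between CD301b and SIRPa they went both ways. The summed level of 18 macrophage markers was 3320 to 3690 CPM in CD301b, 4520 to 4970 CPM in SIRPa and 257 to 292 CPM in XCR1. Of these 18, 17 were called higher in CD301b than in XCR1 and 16 in SIRPa than in XCR1, where 13.5% and 13.9% of all tested genes were. In CD301b against SIRPa, 1 was called higher (Timd4) and 4 lower, among them Vcam1, Axl and Maf, where 2.2% of all tested genes were higher and 2.08% lower. The CD301b mean was above the SIRPa mean for 4 of the 18 (Timd4, Mrc1, Cd163 and Marco) and below it for 14, whereas it was below for all 8 complement genes. Among 6 defining markers (Spic, Cd163, Marco, Cd5l, Mertk and Siglec1), the sum was 111 to 121 CPM in CD301b, 140 to 212 CPM in SIRPa and 4.69, 5.32 and 8.29 CPM in XCR1. None of the 6 was at 0 in all libraries, and Marco was at 0 in all XCR1 libraries. The part of macrophage transcripts in the complement levels was not tested.

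The macrophage sum was 284, 257 and 292 CPM in XCR1 replicates 1, 2 and 3. XCR1 replicate 3 was the highest XCR1 library for 11 of the 18 markers and for 6 of the 8 complement genes. The share of all tested genes for which it was highest was not taken, so these counts show no trait of either set. Among the 6, Cfb rested on 4 counts, and Cfp stood at 21.8, 21 and 23.3 CPM in XCR1 replicates 1, 2 and 3. In the same libraries Siglec1 stood at 0.0499, 0.0475 and 0.627 CPM, Mrc1 at 2.99, 2.76 and 8.63 CPM and Cd68 at 114, 88.8 and 84.9 CPM. In XCR1 the 8 complement genes stood at 0 to 20.8% of the SIRPa mean (median 0.719%), and those other than Cfp at 0 to 0.946%. The 18 markers stood at 0 to 40.9% (median 5.84%). Of the markers, Siglec1 (0.325%) and Marco (0%) lay within the range of the complement genes other than Cfp, and the rest lay above it. Relative to SIRPa, CD301b stood at a median of 62.2% for the 8 complement genes and of 67.1% for the markers, whose range was 11.5 to 549%. Monocyte markers summed to 738 to 861 CPM in CD301b, 686 to 728 CPM in SIRPa and 81.7 to 159 CPM in XCR1. Their part in the result was not tested either.

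**Figure D4:**
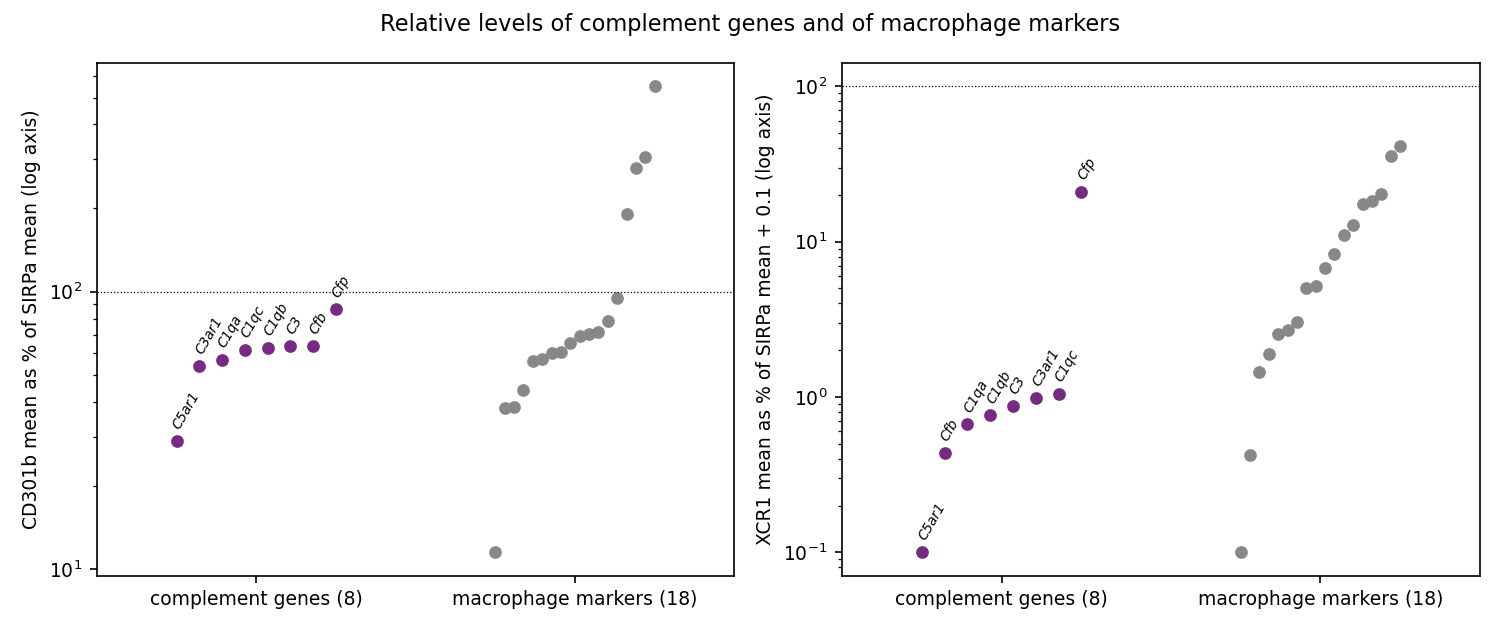
Mean level of each complement gene and each of 18 macrophage markers as a percentage of the SIRPa mean, on log axes, in CD301b (left) and in XCR1 (right, plus 0.1). The 8 complement genes lie at 28.9 to 86.5% in CD301b, and in XCR1 all but Cfp (20.8%) lie under 1%.

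Of 46 other complement genes, 22 were tested and 24 had too few counts, 15 of them no count in any library. Those with none included C1s1 and C1s2, the partner protease of C1q, Cfd, which activates factor B, Cfi, which degrades C3b, and C7, C8a, C8b and C9 of the membrane attack complex. Hc, which encodes C5, had 2 counts in CD301b, 5 in SIRPa and 29 in XCR1. In CD301b against SIRPa 3 of the 22 were higher and 0 lower, where 2.2% of all tested genes were higher and 2.08% lower. In CD301b against XCR1, 13 were higher and 1 lower, where 13.5% of all tested genes were higher and 9.12% lower. In SIRPa against XCR1, 14 were higher and 2 lower, where 13.9% were higher and 10.7% lower. Of the 22, 13 did not reach 10 counts in all 3 XCR1 libraries and so could not have entered the test through XCR1 alone. Among the 9 that did, 7 were higher and 1 lower in CD301b than in XCR1, and 6 were higher and 2 lower in SIRPa than in XCR1. The median log2 fold changes of the 22 were -0.54, 2.34 and 3.06 in these comparisons, where those of all tested genes were 0.01, 0.05 and 0.06. With genes at 0 in XCR1 set against 3 counts there, the medians against XCR1 were 2.33 and 3.02.

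Of the 15 genes of classical and lectin pathway initiation, 5 were tested, and none passed in CD301b against SIRPa, where the uncalled gene with the highest level, C1rl, had a log2 fold change of -0.89 ± 0.76. C1rl, a C1r-like protease, stood at 5.46, 1.38 and 1.76 CPM in CD301b, 5.73, 2.94 and 7.30 CPM in SIRPa and 0 CPM in XCR1. It was at least 49.3-fold higher in CD301b than in XCR1 (adjusted p = 5.36e-05) and at least 87.8-fold higher in SIRPa than in XCR1 (adjusted p = 1.72e-05). C4b, which encodes C4, was also at 0 in XCR1, with counts that its near-identical copy C4a makes uncertain. It was at least 17.9-fold higher in CD301b (adjusted p = 0.00521) and at least 33.5-fold higher in SIRPa (adjusted p = 0.00227). C1ra and Fcna were called in SIRPa against XCR1 (adjusted p = 0.0195 and 0.0207) and not in CD301b against XCR1 (0.111 and 0.41), and neither was called in CD301b against SIRPa (0.67 and 0.306). Both SIRPa calls were lost on leaving out single libraries. For C1ra those were SIRPa replicates 1 and 2 and XCR1 replicates 2 and 3 (0.0524 to 0.0724), and for Fcna they were each SIRPa replicate and XCR1 replicate 1 (0.0562 to 0.0683). C2, the partner of C4 in the classical convertase, did not pass in CD301b against XCR1 (0.90 ± 1.02) or in SIRPa against XCR1 (2.10 ± 1.04, adjusted p = 0.167, and 0.0412 with limma-voom). C2 shares 42.8% of its exonic bases with Gm20547, so its counts are uncertain like those of Cfb.

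Of the 7 terminal genes, 2 were tested. C6 was at 1.09 ± 0.916 CPM in CD301b, 1.16 ± 1.10 CPM in SIRPa and 0 CPM in XCR1, and was called higher in both against XCR1. The difference was at least 18.4-fold in CD301b (adjusted p = 0.0173, and 0.0644 without CD301b replicate 1). In SIRPa it was at least 18.6-fold (adjusted p = 0.0148, and 0.0742 without SIRPa replicate 1). C6 and C8g did not pass in CD301b against SIRPa, and C8g passed in no comparison. With limma-voom the C6 call in SIRPa against XCR1 was lost (adjusted p = 0.0661).

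Among fluid-phase regulators, Clu stood at 47.4, 32.7 and 35.9 CPM in CD301b, 52.9, 35.8 and 52.2 CPM in SIRPa and 11.8, 7.6 and 11.5 CPM in XCR1. Clu, which encodes clusterin, an inhibitor of the terminal complex, was 3.75-fold higher in CD301b than in XCR1 (adjusted p = 1.48e-06) and 4.56-fold higher in SIRPa than in XCR1 (adjusted p = 2.43e-07). In CD301b against SIRPa the log2 fold change of Clu was -0.28 ± 0.22.

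Of the 4 membrane regulators tested, 3 were higher in each comparison with XCR1 and none passed in CD301b against SIRPa. Cr1l, which encodes Crry, the widely expressed mouse regulator of C3 convertases, stood at 43.3 ± 5.85 CPM in CD301b, 42.2 ± 1.63 CPM in SIRPa and 26.9 ± 6.92 CPM in XCR1. Cr1l was 1.61-fold higher in CD301b than in XCR1 (adjusted p = 0.0119, and 0.066 without XCR1 replicate 3) and 1.57-fold higher in SIRPa than in XCR1 (adjusted p = 0.0152). The SIRPa call was lost without SIRPa replicate 3, XCR1 replicate 1 or XCR1 replicate 3 (0.0511 to 0.0822). Susd4 stood at 7.25, 6.33 and 2.69 CPM in CD301b, 1.18, 0 and 0.330 CPM in SIRPa and 0 CPM in XCR1. It was at least 93.3-fold higher in CD301b than in XCR1 (adjusted p = 0.000455). In SIRPa it was at least 7.77-fold higher than in XCR1 (0.0124, but 0.0786 without SIRPa replicate 1 and 0.343 with limma-voom). In CD301b against SIRPa the log2 fold change of Susd4 was 3.42 ± 1.17 (adjusted p = 0.134). Susd4 was called there with DESeq2 (adjusted p = 0.0336), limma-voom (0.036), no count filter (0.0454) and the 6 libraries alone (0.0443). Cd46 had 84 counts in CD301b, 105 in SIRPa and 2 in XCR1, a ratio to XCR1 of 37.4 for CD301b (95% interval 10 to 314) and 49.9 for SIRPa (13.5 to 417). Its calls against XCR1 (0.0315 for CD301b and 0.0189 for SIRPa) were lost for CD301b without CD301b replicate 1, SIRPa replicate 1 or 3, or XCR1 replicate 1 or 2 (0.0563 to 0.118) and with limma-voom (0.0618), and for SIRPa without SIRPa replicate 3 or XCR1 replicate 1 or 2 (0.062 to 0.0793). Cd55 passed in no comparison.

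Among the 9 receptor genes tested, Lrp1 and Itgax were higher in CD301b than in SIRPa. Lrp1, an endocytic receptor that with calreticulin takes up C1q-bearing targets, stood at 267, 222 and 210 CPM in CD301b, 173, 139 and 131 CPM in SIRPa and 15.3, 11.8 and 13.4 CPM in XCR1. The 3 populations did not overlap. Lrp1 was 1.58-fold higher in CD301b than in SIRPa (log2 0.66 ± 0.13, adjusted p = 0.00476), 17.3-fold higher in CD301b than in XCR1 (adjusted p = 3.25e-14) and 10.9-fold higher in SIRPa than in XCR1 (adjusted p = 3.64e-13). Itgax, the alpha chain of complement receptor CR4 and a general dendritic cell gene, averaged 599 ± 36.9 CPM in CD301b, 467 ± 23.3 CPM in SIRPa and 385 ± 35.8 CPM in XCR1. It was 1.28-fold higher in CD301b than in SIRPa (adjusted p = 0.0401), a call lost without CD301b replicate 1 or 3 or any SIRPa replicate (0.0924 to 0.224) and with RLE scaling (0.0557), and 1.55-fold higher in CD301b than in XCR1 (adjusted p = 4.27e-05).

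Itgam, the alpha chain of complement receptor CR3, stood at 10.5 ± 1.80 CPM in CD301b, 16.3 ± 2.93 CPM in SIRPa and 1 ± 0.419 CPM in XCR1. Itgam was 10.4-fold higher in CD301b than in XCR1 (adjusted p = 1.31e-06) and 16.1-fold higher in SIRPa than in XCR1 (adjusted p = 1.59e-07), with 68.7% of its exonic bases shared with the readthrough gene Gm49368. C5ar2, the second receptor for C5a, had 88 counts in CD301b, 227 in SIRPa and 0 in XCR1. It was at least 58-fold higher in SIRPa than in XCR1 (adjusted p = 0.000546). In CD301b it was at least 20.8-fold higher than in XCR1, and called in all 16 alternative fits (adjusted p = 3.25e-05 to 0.0447). The genes that were lower against XCR1 encode proteins that bind C1q and have other main functions. C1qbp, named here after its values were seen, was lower in CD301b by 1.39-fold (adjusted p = 0.0158, and 0.0646 without CD301b replicate 4) and in SIRPa by 1.45-fold (adjusted p = 0.00662). Calr, which encodes calreticulin, was 1.40-fold lower in SIRPa than in XCR1 (adjusted p = 0.00544), and its log2 fold change was -0.20 ± 0.12 in CD301b against XCR1 (adjusted p = 0.274, and 0.0461 without XCR1 replicate 3) and 0.28 ± 0.12 in CD301b against SIRPa. Itgb2 encodes the shared beta chain of CR3 and CR4. It averaged 484 ± 43.3 CPM in CD301b, 410 ± 10.1 CPM in SIRPa and 346 ± 9.13 CPM in XCR1. Its log2 fold change was 0.25 ± 0.09 in SIRPa against XCR1 (adjusted p = 0.0647, called in 5 of 16 alternative fits). In CD301b against XCR1, Itgb2 was called higher in all 16 alternative fits (adjusted p = 6.14e-07 to 0.00512). The map of the other complement genes shows their levels by library.

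**Figure D5:**
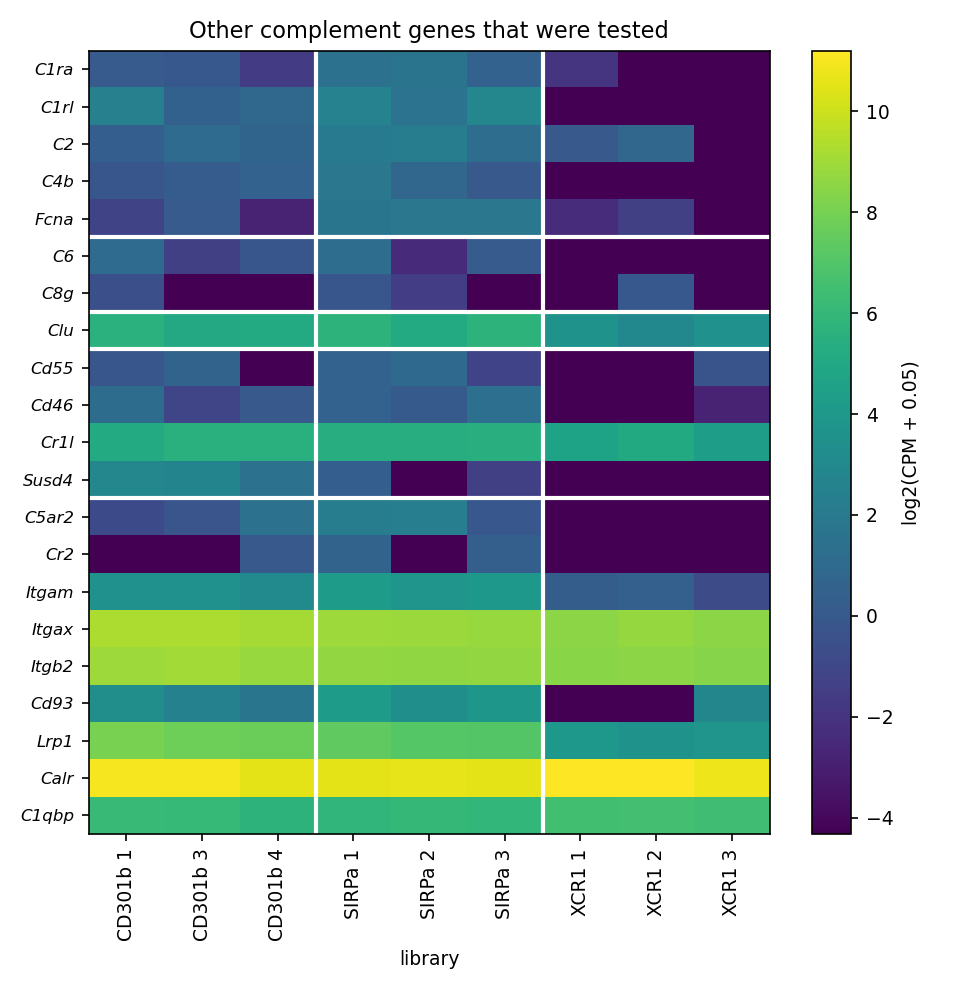
Levels of other complement genes that were tested, as log2(CPM + 0.05) in each library; white lines separate populations and, from top to bottom, initiation, terminal, fluid regulator, membrane regulator and receptor genes. Lrp1 is highest in the CD301b columns, and 6 genes have no count in any XCR1 library.

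The genes whose pattern was most like that of the C1q chains, by Pearson r of log2 CPM over the 9 libraries with a mean of at least 5 CPM, were Igf1 and Abca1 (r = 0.998), Cmklr1, Cfb, C3, Siglec1 and Cd4 (r = 0.997), and Siglece, Abhd15 and Olfml3 (r = 0.996). These values share libraries and mostly restate the gap to XCR1. Cfb and C3 are members of the same 8 genes, and Siglec1 is 1 of the 18 macrophage markers. For C3 the most alike were Cmklr1, Igf1 and Abca1 (r = 0.999 each), and for Cfp they were Axl, Ctsa and Clec5a (r = 0.999 each). For C3ar1 they were Adap1 (r = 0.998), Vps18 (0.995) and Mlkl (0.991).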

How the data were processed

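Per the labels' protocols, thymi were digested with collagenase D, cells were stained and sorted, RNA was isolated with a micro-scale column kit and stranded total RNA libraries were made with a Clontech kit. Per the submitters' processing notes, the tools were FastQC, Trimmomatic, HISAT2, SAMtools, featureCounts of Subread and edgeR, with the genome build mm10. Their versions, the annotation and whether counting used strand were not given in the sources used here. The main deposited file gives the authors' raw read count for each symbol and library. The authors' second deposited table holds log2 CPM and was used only to check the counts of the 8 genes: over 51 values with at least 100 counts, the 2 sources differed by 0.11 to 0.13. Dates stood in place of 24 symbols (0.125 to 0.187% of a library's counts), which were left out.

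Counts were filtered with filterByExpr (minimum count 10, 15417 genes left) and scaled by TMM. edgeR's quasi-likelihood test (robust, two-sided) was run in 1 fit over the 9 libraries, with Benjamini-Hochberg adjustment over all tested genes of a comparison and a threshold of 0.05; it was tested on simulated data first. R 4.3.3, edgeR 4.0.16, limma 3.58.1, DESeq2 1.42.0 and Python 3.11.15 were used. Libraries are unpaired in the test, since no label says that numbers mark animals. For the medians, a count of 0 over a population was read as at most 3 counts. Folds given as at least a value are the lower limit of the 95% interval by counts. Intervals and such floors cover counting error only. In a library, 3 counts were 0.119 to 0.15 CPM. Positions and exon lengths come from GENCODE vM21 on GRCm38, and promoters from RefSeq.

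The members and gene lists were chosen with earlier results of these data known, and the promoter strings after the sequences were seen. All 8 members were named in every comparison; of the other complement genes, up to 3 called with the smallest adjusted p per role and comparison, and the uncalled one with the highest level. Alternatives were other scaling (RLE), no count filter, no robust estimation, DESeq2, limma-voom, the 2 populations' 6 libraries alone, a block for the replicate number and leaving out each library. Genes that enter the counts of a list but are not named are not reported here.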

Additional observations from a re-analysis of the deposited data

How the results depend on the processing

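With each library left out in turn, 0 to 4 of the 8 complement genes were called between CD301b and SIRPa, 1 to 4 of the other complement genes, and 328 to 813 of all genes (660 with none left out). There, 5 of the 8 were called by limma-voom and 5 by the fit to 6 libraries alone; in the 6-library fit the XCR1 libraries no longer enter the spread, by construction, and the cause of the others was not tested. Deviations from the population means had correlations of 0.000 to 0.030 between libraries with the same number. Between libraries with different numbers they were -0.061 to 0.044. With 3 libraries per population these values cannot tell if a number marks a shared animal. With the replicate block, calls were 0, 7 and 8 of the 8 genes in CD301b against SIRPa, CD301b against XCR1 and SIRPa against XCR1, 4, 11 and 17 of the other complement genes, and 660, 2913 and 4034 of all genes. Under the block C5ar1 (adjusted p = 0.185), C6 (0.0803), Cd46 (0.115) and C1qbp (0.141) lost their calls in CD301b against XCR1. C5ar1 had no value in the fits to 6 libraries with XCR1.

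By counts rather than counts per kilobase, the C1qa, C1qb and C1qc shares averaged 36, 33.4 and 30.6% in CD301b (42.6, 37.9 and 19.5% per kilobase) and 38.0, 32.2 and 29.8% in SIRPa (44.8, 36.3 and 18.9%), and C1qc 45.0% in XCR1 (31.7%). Log2 fold changes that turned sign were all of uncalled genes, and their cause was not tested. In CD301b against SIRPa these were C1qbp (-0.06 to 0.18 with a library left out), C6 (0.32 with limma-voom, -1 to 0.90 with a library left out), C8g (0.34 under the block, -6.07 to 0.45) and Cr1l (-0.03 to 0.14). In CD301b against XCR1 they were C8g (1.65 under the block, -5.72 to 5.27) and Cr2 (-0.71 under the block, 0.00 to 6.41), and in SIRPa against XCR1 C8g (-0.95 to 6.10). C5ar1 rested on 40 counts in CD301b and 135 in SIRPa, so its size is limited by depth.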
